A study of Mus musculus with 22 samples.

Results

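The genes described here build cholesterol, sense it, pass it on or remove it, and their RNA was followed in 22 brain libraries from old male mice of the strain C57BL/6J. The members were the rows of the gene count table whose symbol was one of 31 names, and all 31 were found among 56748 rows. Each of the 31 also passed the filter on low counts, as did 20026 genes in all. By role they fell into 5 sets: 7 mevalonate pathway enzymes, 11 enzymes of the sterol branch, 5 genes of sterol sensing, 2 oxysterol receptors, and 6 genes of export, esterification, turnover and transport.

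The mice formed 6 groups in a model of Gulf War illness. Exposed mice (GW) had been injected from the age of 10 weeks, on 10 days in a row, with pyridostigmine bromide at 0.7 mg/kg, which blocks acetylcholinesterase, and with the insecticide permethrin at 200 mg/kg. Unexposed mice (Ctrl) had not received these chemicals, and all groups were then aged to 17.5 months. Cannabidiol (CBD), a plant cannabinoid that does not intoxicate, was given to some exposed mice at 30 mg/kg daily for 28 days and then every 2 days for 2 weeks, and the rest received its vehicle of Tween 80 in PBS. Lipopolysaccharide (LPS), a bacterial cell wall component that sets off inflammation, was injected at 0.33 mg/kg 24 h before the brains were taken, and the comparison mice received PBS. The groups were unexposed vehicle mice without LPS (CtrlVeh, 3 libraries) and with it (CtrlVehLPS, 3), exposed vehicle mice without (GWVeh, 4) and with it (GWVehLPS, 4), and exposed CBD mice without (GWCBD30, 4) and with it (GWCBD30LPS, 4). No unexposed mouse received CBD, so CBD was compared with vehicle in exposed mice alone. The labels give the tissue as whole brain and do not say that each library is a separate mouse. The p-values therefore set group differences against the spread between these libraries, which may in part be technical.

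Neurons and glia make nearly all of the cholesterol of the brain in place, since lipoproteins of the blood hardly cross the blood-brain barrier, and myelin holds most of it. Acetyl-CoA is turned into mevalonate, isoprenoids and squalene, and squalene is closed into lanosterol and trimmed to cholesterol. When membranes are poor in sterol, the Scap protein carries SREBP transcription factors out of the endoplasmic reticulum, and these switch on the enzymes of synthesis. When sterol is plentiful, the Insig proteins hold Scap back, and oxysterols bind the liver X receptors, which switch on the exporters Abca1 and Abcg1. In neurons Cyp46a1 hydroxylates cholesterol into a form that leaves the brain.

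Start-site sequence was examined because enzymes of this pathway are known to share SREBP and NF-Y control. RefSeq promoter windows of GRCm38.p6, from 250 bases before to 50 bases after a transcription start, were at hand for 26 of the 31 members, in 35 windows. The motif CCAAT, the letters bound by NF-Y, was searched on both strands, as was TCACNCCAC, a core of the sterol regulatory element. CCAAT was present in a window of 21 of 26 members (80.8%), of 14 of 15 synthesis enzymes (93.3%) and of 9 of 9 sterol branch enzymes, against 41.1% of 27025 genes and 37.4% of all 32851 windows. TCACNCCAC was present in 1 of 26 members (3.85%) and in 1.44% of genes, and its inner letters CACNCCAC in 3 of 26 members (11.5%) and 7.12% of genes. The match of the longer motif was TCACCCCAC in Hmgcs1, beginning 137 bases before the start, and it overlapped no CCAAT there. A match describes letters and not a bound site.

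The stretches before the gene are shown for 5 members whose level fell with LPS, and for Nr1h2, an oxysterol receptor that was not called and whose window held neither motif. Among synthesis enzymes CCAAT did not set called ones apart. Of those with a window Acat2 alone lacked it, and the windows of Mvk and Nsdhl, which were not called, held it 5 and 4 times. Outside them Insig1, which was called, held it. Of the members there that were not called, Scap, Nr1h2, Nr1h3 and Abca1 lacked it, and Srebf1, Srebf2, Insig2, Lcat, Soat1 and Cyp46a1 held it. Abcg1 and Stard4, which were called, had no window. Each stretch is written 5′ to 3′ on the gene's own strand, and capitals mark CCAAT on either strand and, in Hmgcs1, the letters TCACCCCAC. Positions are Hmgcs1 chr13:119690101-119690350 (+), Mvd chr8:122443423-122443672 (-), Lss chr10:76531355-76531587 (+), Hsd17b7 chr1:169969242-169969455 (-), Insig1 chr5:28071162-28071362 (+) and Nr1h2 chr7:44553966-44554215 (-), all on GRCm38.
Hmgcs1: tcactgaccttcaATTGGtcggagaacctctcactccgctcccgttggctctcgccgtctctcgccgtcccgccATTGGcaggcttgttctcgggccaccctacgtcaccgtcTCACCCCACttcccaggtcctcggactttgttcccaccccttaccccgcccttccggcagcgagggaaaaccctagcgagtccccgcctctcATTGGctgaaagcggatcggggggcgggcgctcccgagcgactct
Mvd: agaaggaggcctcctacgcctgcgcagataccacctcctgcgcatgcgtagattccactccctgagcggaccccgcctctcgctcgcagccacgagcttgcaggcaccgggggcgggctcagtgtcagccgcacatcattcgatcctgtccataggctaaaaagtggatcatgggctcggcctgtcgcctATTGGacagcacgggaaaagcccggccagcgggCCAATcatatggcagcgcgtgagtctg
Lss: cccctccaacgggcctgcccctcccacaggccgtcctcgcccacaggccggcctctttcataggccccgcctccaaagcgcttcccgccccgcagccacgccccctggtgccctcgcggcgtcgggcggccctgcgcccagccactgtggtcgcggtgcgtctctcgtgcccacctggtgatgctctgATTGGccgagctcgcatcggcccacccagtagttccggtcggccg
Hsd17b7: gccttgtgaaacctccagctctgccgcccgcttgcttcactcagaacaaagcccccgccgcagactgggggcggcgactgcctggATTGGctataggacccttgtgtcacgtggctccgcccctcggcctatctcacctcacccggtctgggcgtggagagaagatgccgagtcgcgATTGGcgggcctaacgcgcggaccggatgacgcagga
Insig1: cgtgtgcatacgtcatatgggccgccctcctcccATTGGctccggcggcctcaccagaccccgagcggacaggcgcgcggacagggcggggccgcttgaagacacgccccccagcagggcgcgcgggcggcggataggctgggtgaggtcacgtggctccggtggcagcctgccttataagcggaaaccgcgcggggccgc
Nr1h2: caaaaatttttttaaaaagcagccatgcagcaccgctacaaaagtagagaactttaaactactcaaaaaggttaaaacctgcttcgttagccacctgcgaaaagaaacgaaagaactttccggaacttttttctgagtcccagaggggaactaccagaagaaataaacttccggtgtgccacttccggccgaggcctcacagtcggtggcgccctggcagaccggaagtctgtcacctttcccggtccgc
These stretches hold CCAAT 3 times in Hmgcs1, 2 times in Mvd, 1 time in Lss, 2 times in Hsd17b7, 1 time in Insig1 and 0 times in Nr1h2.

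Library totals ran from 17.2 to 31.2 M counts. CtrlVehLPS replicate 1 stood apart: the summed level of 8 cerebellar markers was 160.0 CPM there (counts scaled to the size of the library), against 787.5 to 1311 CPM in the other 21 libraries, and the summed level of 8 pancreatic markers was 239.8 CPM, against at most 1.46 CPM elsewhere. Olfactory bulb markers also ran higher in that group, with a summed level of 175.4 to 304.7 CPM in CtrlVehLPS and 116.5 to 130.7 CPM in CtrlVeh. They reached 171.2 and 182.6 CPM in GWVehLPS replicates 2 and 3 and 177.9 CPM in GWCBD30LPS replicate 4, against 127.2 to 144.4 CPM in the other 13 exposed libraries. Markers of neurons, astrocytes, microglia and oligodendrocytes were present in every library. In bulk tissue, fewer cells of a type and less RNA per cell cannot be told apart.

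Per kilobase of exon, levels of the members over the 22 libraries spanned a wide range. Cyp46a1 was highest at 51.9 ± 4.70 CPM per kb (SD, n = 22), followed by Srebf2, which encodes the SREBP factor devoted to sterol synthesis, at 40.8 ± 2.63, Hmgcs1 at 35.5 ± 4.14 and Insig1 at 28.5 ± 2.46 CPM per kb. Neighbours in the order of the 31 levels overlapped in their range over libraries, except Nr1h3 and Fdps at the low end. Soat1, which esterifies cholesterol for storage, had 4.05 ± 0.260 CPM per kb, and Nr1h3, the liver X receptor of macrophages and liver, had 2.44 ± 0.580 CPM per kb. Fdps, which joins isoprenoid units, was listed lowest at 0.331 ± 0.103 CPM per kb and rested on 17 to 51 reads a library, so its fold changes carry little weight. Fdps shares 26.7% of its exon length with Gm43738 on the same strand, which held 6 reads in all, so its level is also uncertain.

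Part of the synthesis pathway was lower after LPS. Averaged over the 3 arms, edgeR's quasi-likelihood test called 8 members lower and 1 higher at an adjusted p of 0.05, of 31, where 3.52% of all 20026 genes were called and 1.03% were called lower. The 8 were the synthesis enzymes Lss, Hsd17b7, Msmo1, Hmgcs1, Cyp51 and Mvd, the sterol sensor Insig1 and the sterol carrier Stard4, and the 1 higher was the exporter Abcg1. Of the 18 synthesis enzymes, 17 had a negative log2 fold change, with a median of -0.15, while the median of all genes was -0.01 and 52.6% of genes were negative. The falls were small, and log2 fold changes of the 8 called members ran from -0.24 ± 0.05 (SE) for Hsd17b7 to -0.16 ± 0.04 for Stard4. Without CtrlVehLPS replicate 1, 10 members were called, and 899 of all genes in place of 705. With the olfactory bulb and cerebellar marker scores as covariates, 4 members and 333 genes were called. The 5 members no longer called were Mvd, Cyp51, Msmo1, Stard4 and Abcg1, with log2 fold changes of -0.25, -0.21, -0.19, -0.11 and 0.18 in that fit and -0.21, -0.17, -0.19, -0.16 and 0.20 without the covariates.

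**Figure D1:**
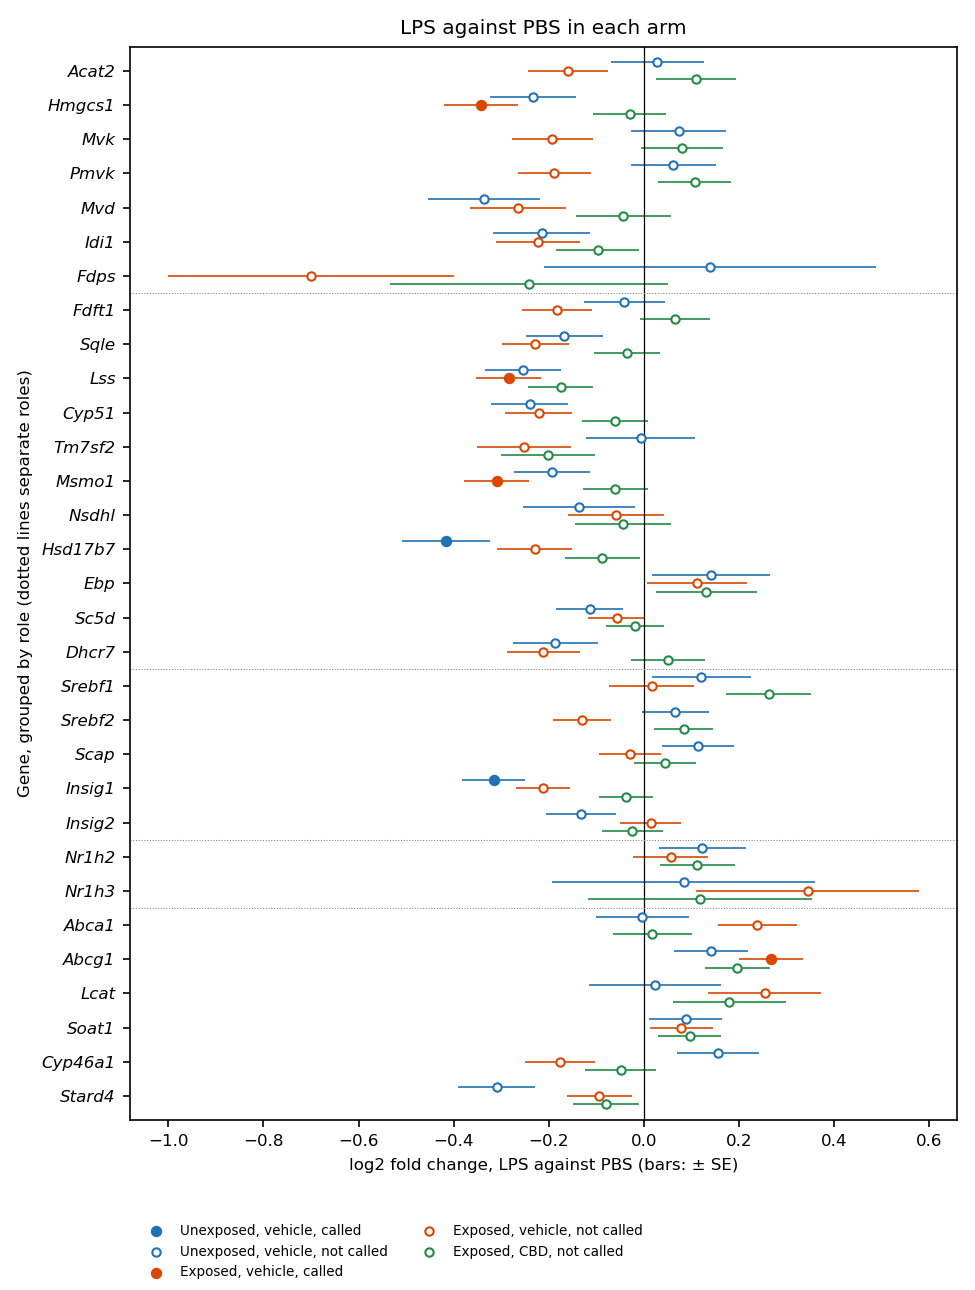
Each point is the log2 fold change of LPS against PBS for 1 of the 31 genes in 1 arm, with bars of 1 SE, filled where the adjusted p was at most 0.05. Points of most synthesis enzymes lie left of 0 in both vehicle arms. In the CBD arm their median lies nearer to 0 and no point is filled. Some enzymes, such as Tm7sf2 and Acat2, lie farther from 0 there than in unexposed mice.

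Among the mevalonate enzymes, Hmgcs1, the synthase of HMG-CoA, had the clearest fall. Its levels were 173, 181 and 184 CPM in CtrlVeh and 171, 149 and 138 CPM in CtrlVehLPS. They were 166, 172, 183 and 177 CPM in GWVeh and 136, 158, 134 and 122 CPM in GWVehLPS. With CBD they were 170.3, 172, 145 and 194 CPM in GWCBD30 and 156, 183, 162 and 166 CPM in GWCBD30LPS. The LPS libraries lay below the PBS libraries in both vehicle arms and among them in the CBD arm. The log2 fold change was -0.34 ± 0.08 in exposed vehicle mice (adjusted p = 0.0186, edgeR) and -0.23 ± 0.09 in unexposed mice (adjusted p = 0.272). In CBD mice it was -0.03 ± 0.08, and averaged over the arms it was -0.20 ± 0.05 (adjusted p = 0.0112, edgeR).

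Mvd, the decarboxylase that yields the first isoprenoid, was called in the average alone. CtrlVeh libraries held 18.2, 17.2 and 20.4 CPM and CtrlVehLPS libraries 14.3, 15.02 and 14.9 CPM. GWVeh libraries held 19.6, 19.3, 18.7 and 19.2 CPM and GWVehLPS libraries 13.7, 18.9, 14.1 and 17.2 CPM. CBD mice had 19.5, 17.8, 18.99 and 14.98 CPM without LPS and 16.4, 15.7, 18.3 and 18.95 CPM with it. Groups were apart in unexposed mice and overlapped in the other arms. The averaged log2 fold change was -0.21 ± 0.06 (adjusted p = 0.0445, edgeR). This call was lost in 18 of 22 fits that left out 1 library, with values of -0.24 to -0.19 and adjusted p up to 0.113 over the 22, and in 2 of 8 other alternatives, with adjusted p up to 0.167 (edgeR). The other 5 mevalonate enzymes were Acat2, Mvk, Pmvk, Idi1 and Fdps, and none was called in any comparison. Their averaged log2 fold changes ran from -0.27 for Fdps to -0.01 for Pmvk, a kinase of the pathway. Acat2, the thiolase at its start, has a near-identical neighbour in the mouse genome, so its counts are uncertain.

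In the sterol branch, 4 of 11 enzymes were called lower in the average. Lss, which closes squalene epoxide into lanosterol, had 51.6, 53.2 and 52.8 CPM in CtrlVeh and 42.3, 45.9 and 44.1 CPM in CtrlVehLPS. It had 47.5, 48.1, 48.4 and 54.01 CPM in GWVeh and 38.6, 38.9, 42.9 and 42.3 CPM in GWVehLPS. In CBD mice it had 53.3, 55.4, 46.4 and 54.2 CPM without LPS and 42.7, 45.01, 47.98 and 49.9 CPM with it. LPS libraries were lower without overlap in both vehicle arms. The log2 fold change of Lss was -0.28 ± 0.07 in exposed vehicle mice (adjusted p = 0.0291, edgeR), -0.25 ± 0.08 in unexposed mice (adjusted p = 0.150), -0.17 ± 0.07 in CBD mice (adjusted p = 0.503), and on average -0.24 ± 0.04 (adjusted p = 0.000615).

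Cyp51, the demethylase of lanosterol, stood at 76.96, 70.8 and 62.8 CPM in CtrlVeh and 62.6, 59.3 and 56.1 CPM in CtrlVehLPS. For exposed vehicle mice the values were 64.2, 65.6, 59.3 and 63.1 CPM without LPS and 52.2, 60.3, 48.7 and 54.96 CPM with it. For CBD mice they were 67.1, 65.3, 61.97 and 64.9 CPM and 56.8, 63.04, 61.8 and 67.1 CPM. Only the unexposed groups were apart among the 3 arms, by a narrow margin. No single arm was called for Cyp51, and its averaged log2 fold change was -0.17 ± 0.04 (adjusted p = 0.0153, edgeR). Its exons overlap those of Akap9 on the opposite strand over 3.76% of their length, and the strand setting of the counting is not given in the sources used here.

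Msmo1, an oxidase that removes methyl groups from the sterol ring, had 82.6, 82.1 and 78.4 CPM in CtrlVeh and 75.5, 68.3 and 68.5 CPM in CtrlVehLPS. GWVeh had 75.8, 81.9, 76.1 and 77.8 CPM and GWVehLPS 63.05, 68.6, 56.2 and 63.5 CPM. GWCBD30 had 71.4, 78.1, 64.3 and 81.5 CPM and GWCBD30LPS 65.8, 73.3, 70.5 and 73.9 CPM. Both vehicle arms were apart, with LPS lower, and the CBD arm overlapped. The log2 fold change was -0.31 ± 0.07 in exposed vehicle mice (adjusted p = 0.0142, edgeR), -0.19 ± 0.08 in unexposed mice (adjusted p = 0.308) and -0.19 ± 0.04 on average (adjusted p = 0.00701).

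Hsd17b7, a ketosteroid reductase of the same demethylation steps, had 32.96, 33.7 and 31.4 CPM in CtrlVeh and 24.7, 22.96 and 25.8 CPM in CtrlVehLPS. It measured 27.5, 29.03, 29.7 and 27.7 CPM in GWVeh and 21.7, 27.4, 23.5 and 24.6 CPM in GWVehLPS. With CBD it measured 29.9, 31.4, 25.8 and 32.9 CPM without LPS and 27.2, 29.5, 28.6 and 27.6 CPM with LPS. The unexposed PBS libraries were the highest of the vehicle groups, and LPS libraries were lower without overlap in both vehicle arms. The log2 fold change was -0.42 ± 0.09 in unexposed mice (adjusted p = 0.0246, edgeR), -0.23 ± 0.08 in exposed vehicle mice (adjusted p = 0.210) and -0.24 ± 0.05 on average (adjusted p = 0.00212). Without CtrlVehLPS replicate 1 the value in unexposed mice was -0.43, with an adjusted p of 0.0608.

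The other 7 sterol branch enzymes, Fdft1, Sqle, Tm7sf2, Nsdhl, Ebp, Sc5d and Dhcr7, were called in no comparison. Sqle, the epoxidase that commits squalene to sterols, had an averaged log2 fold change of -0.14 ± 0.04, and its LPS libraries lay below the PBS libraries in both vehicle arms. Ebp, an isomerase of the late steps, was the 1 synthesis enzyme with a positive average, 0.13 ± 0.06. Fdft1, which makes squalene, shares 18.3% of its exon length with Ctsb on the opposite strand, and Tm7sf2, a sterol reductase, shares 12.1% with Vps51 on the same strand, so both are uncertain.

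**Figure D2:**
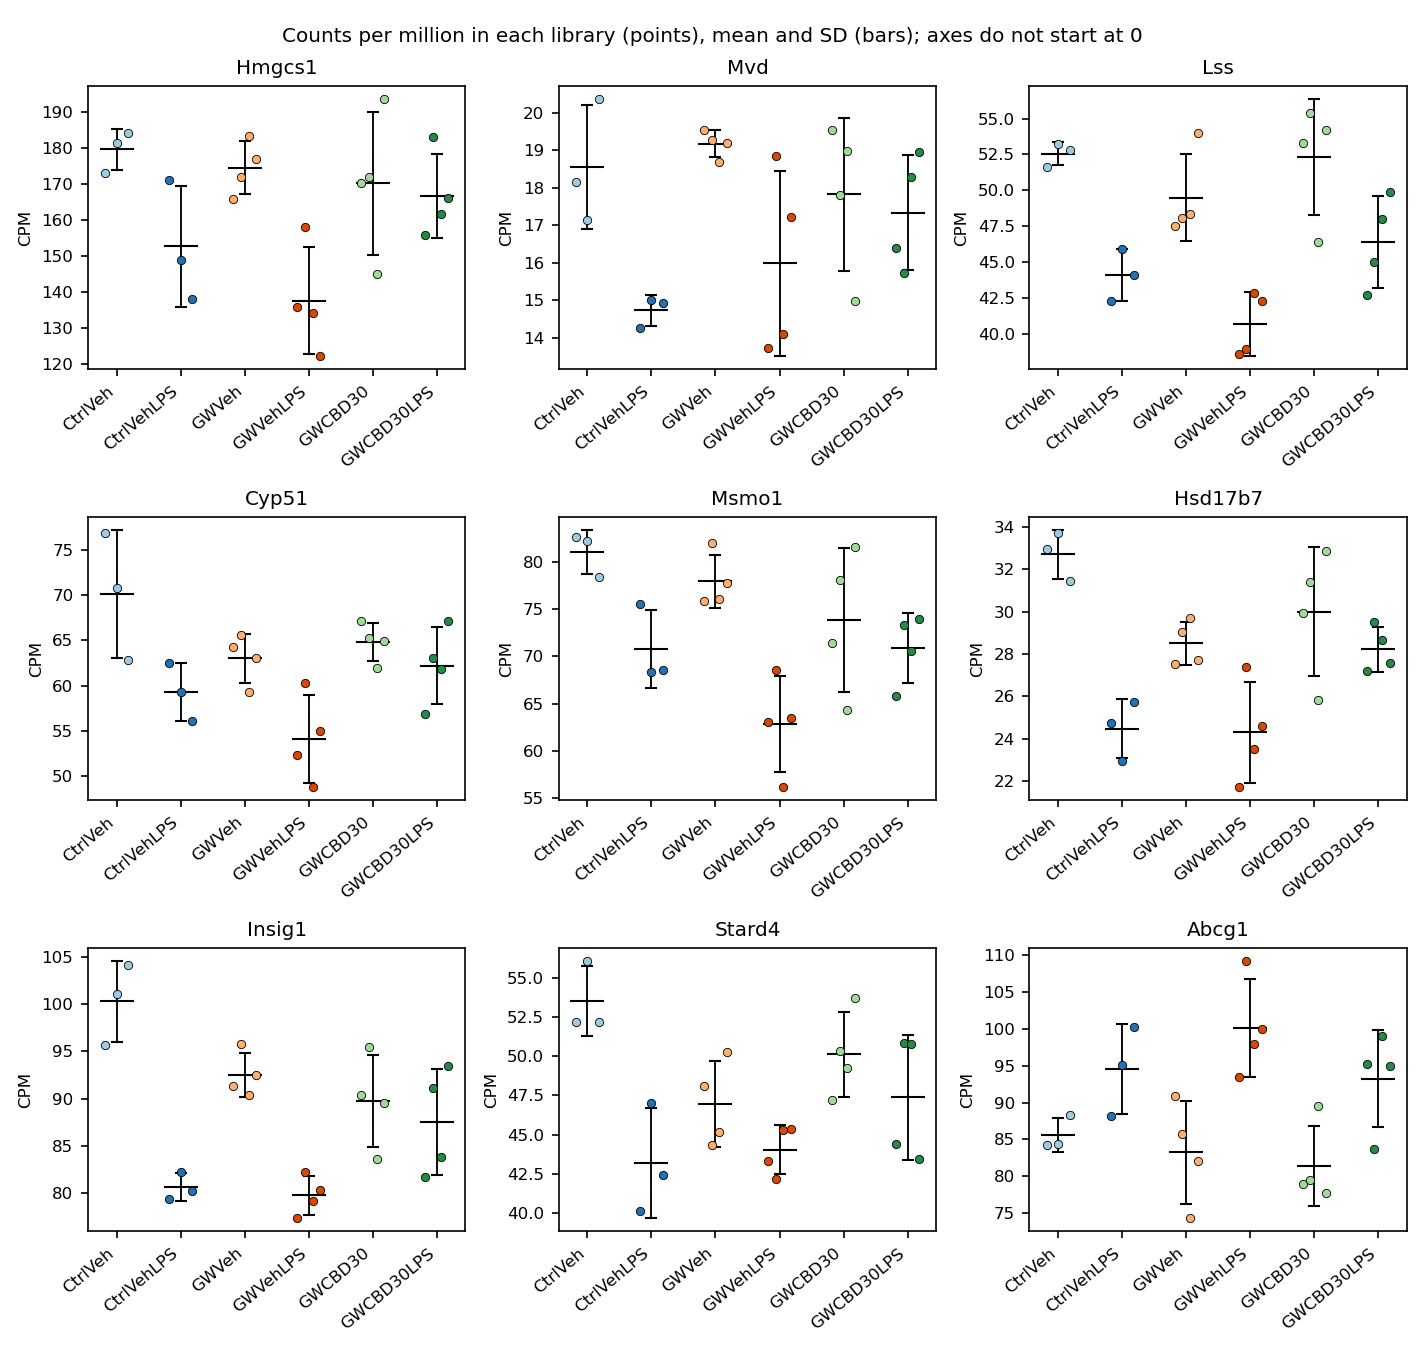
Each point is the level of 1 gene in 1 library in CPM, for the 9 members called in at least 1 comparison, with bars for the group mean and SD, and axes that do not start at 0. For Insig1 the 3 CtrlVehLPS libraries and the 4 GWVehLPS libraries lie below all PBS libraries of their arm, while the GWCBD30 and GWCBD30LPS points overlap.

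Of the sensing genes, Insig1, itself a target of SREBP, was the 1 called. It had 95.6, 101 and 104 CPM in CtrlVeh and 79.3, 82.3 and 80.2 CPM in CtrlVehLPS. Exposed vehicle mice had 91.3, 95.7, 90.3 and 92.5 CPM without LPS and 77.3, 82.2, 79.2 and 80.3 CPM with it. CBD mice had 90.3, 95.5, 83.6 and 89.5 CPM without LPS and 81.7, 91.1, 83.8 and 93.4 CPM with it. Both vehicle arms were apart, and the CBD arm was not. The log2 fold change was -0.32 ± 0.07 in unexposed mice (adjusted p = 0.0169, edgeR), -0.21 ± 0.06 in exposed vehicle mice (adjusted p = 0.0638), -0.04 ± 0.06 in CBD mice (adjusted p = 0.893) and -0.19 ± 0.03 on average (adjusted p = 0.000946). Without CtrlVehLPS replicate 1 the value in unexposed mice was -0.30, with an adjusted p of 0.057. Srebf1, Srebf2, Scap and Insig2 were not called, with averaged log2 fold changes of 0.13 ± 0.05, 0.01 ± 0.04, 0.04 ± 0.04 and -0.05 ± 0.04.

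The oxysterol receptors were called in no comparison. Nr1h2, the liver X receptor found in most cells, had 57.8, 53.3 and 61.2 CPM in CtrlVeh and 55.6, 62.2 and 70.3 CPM in CtrlVehLPS. It had 66.7, 61.7, 61.3 and 59.4 CPM in GWVeh and 62.4, 69.3, 61.4 and 65.96 CPM in GWVehLPS. It had 60.3, 62.8, 61.2 and 47.4 CPM in GWCBD30 and 63.6, 57.2, 67.4 and 62.2 CPM in GWCBD30LPS. All 3 arms overlapped, and the averaged log2 fold change was 0.10 ± 0.05 (adjusted p = 0.283, edgeR). Nr1h3 had 0.18 ± 0.14 on 71 to 214 reads a library.

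Of the 6 genes of export and turnover, Abcg1 rose and Stard4 fell. Abcg1, which passes cholesterol to lipoproteins, had 84.2, 84.3 and 88.3 CPM in CtrlVeh and 88.1, 95.1 and 100.3 CPM in CtrlVehLPS. Its level was 90.9, 85.8, 74.3 and 82.00 CPM in GWVeh and 93.5, 109, 97.98 and 99.95 CPM in GWVehLPS. CBD mice showed 78.9, 79.5, 89.5 and 77.6 CPM without LPS and 95.2, 83.8, 99.1 and 94.98 CPM with it. Only the exposed vehicle groups were apart among the 3 arms, with LPS higher. The log2 fold change was 0.27 ± 0.07 there (adjusted p = 0.0451, edgeR) and 0.20 ± 0.04 on average (adjusted p = 0.00310), and with the olfactory bulb and cerebellar scores as covariates the averaged value was 0.18 with an adjusted p of 0.0811. The call in exposed vehicle mice was lost in 14 of 22 fits that left out 1 library, with values of 0.22 to 0.31 and adjusted p up to 0.224 over the 22, and in 2 of 9 other alternatives, with adjusted p up to 0.141 (edgeR). Abca1, the other liver X receptor exporter, had an averaged value of 0.08 ± 0.05 and was not called.

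Stard4, which moves sterol between membranes, had 52.2, 56.1 and 52.2 CPM in CtrlVeh and 40.1, 47.04 and 42.4 CPM in CtrlVehLPS. Its values were 48.1, 44.3, 45.2 and 50.3 CPM in GWVeh and 43.4, 42.2, 45.3 and 45.4 CPM in GWVehLPS. They were 47.2, 50.3, 49.3 and 53.7 CPM in GWCBD30 and 44.4, 50.9, 50.8 and 43.5 CPM in GWCBD30LPS. Unexposed mice alone of the 3 arms had groups that were apart. The averaged log2 fold change was -0.16 ± 0.04 (adjusted p = 0.0245, edgeR). Lcat, which esterifies cholesterol on lipoproteins, Soat1 and Cyp46a1 were not called, with averages of 0.15 ± 0.07, 0.09 ± 0.04 and -0.02 ± 0.05.

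Arm by arm, 2 members were called lower in unexposed mice (Insig1 and Hsd17b7), where 0.494% of genes were called. In exposed vehicle mice 3 were called lower (Hmgcs1, Msmo1, Lss) and 1 higher (Abcg1), where 0.939% were called. In exposed CBD mice edgeR called 0 members and 0.00499% of genes. There 4 members had an unadjusted p under 0.05, as had 8.22% of genes. DESeq2 and limma voom also called 0 members, and over 9 alternatives, these among them, 0 to 87 of all genes were called. The 18 synthesis enzymes had negative values in 13, 17 and 12 cases and medians of -0.15, -0.22 and -0.04 in these arms. Groups were apart with LPS lower for 10 members in unexposed mice, where this held for 8.13% of genes, and for 10 members in exposed vehicle mice, where it held for 2.37%. It held for 0 members in CBD mice and for 2.85% of genes. For Lss and Hsd17b7 GWCBD30 replicate 3 alone made the CBD groups overlap. In 22 fits that left out 1 library the members called in CBD mice stayed at 0, with 0 to 13 of all genes called. Without CtrlVehLPS replicate 1, CtrlVeh replicate 2 or CtrlVeh replicate 3, 0 members were called in unexposed mice, and without CtrlVeh replicate 1, 1 was called. In exposed vehicle mice 1 member was called without GWVeh replicate 2, 3 or 4 or GWVehLPS replicate 3, and 2 without GWVehLPS replicate 1 or 4.

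The summed level of the 18 synthesis enzymes gave the same data in 1 value per library. It was 892, 879 and 883 CPM in CtrlVeh and 823, 777 and 783 CPM in CtrlVehLPS. It was 855, 889.5, 866 and 854 CPM in GWVeh and 723, 814, 699.96 and 730.5 CPM in GWVehLPS. In the CBD arm it was 855, 879, 767 and 878 CPM in GWCBD30 and 803, 840.4, 840.2 and 847 CPM in GWCBD30LPS. Both vehicle arms were apart with LPS lower. In the CBD arm 1 low PBS library lay below all 4 LPS libraries, and the other PBS libraries lay above them. Group means ran from 742 ± 49.6 CPM (SD, n = 4) in GWVehLPS to 884 ± 6.84 CPM (SD, n = 3) in CtrlVeh.

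**Figure D3:**
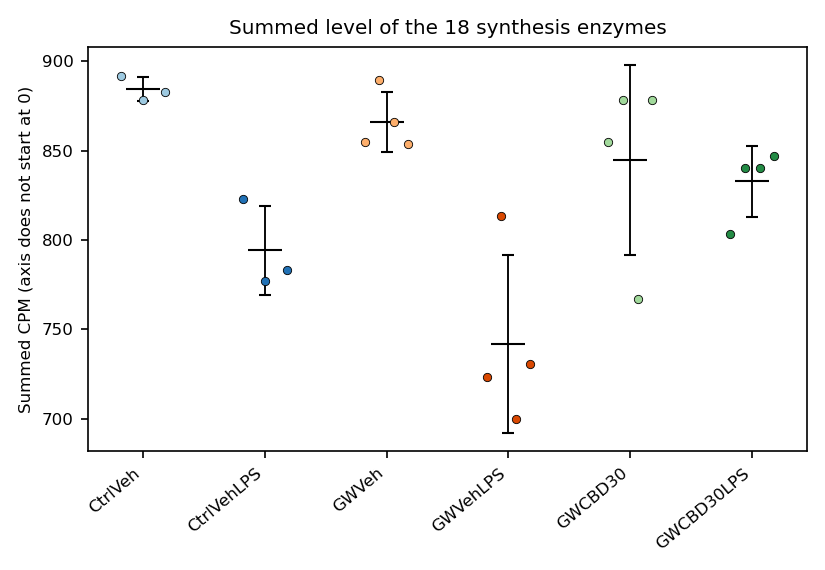
Each point is 1 library's summed level of the 18 synthesis enzymes in CPM, with bars for the group mean and SD, on an axis that does not start at 0. CtrlVehLPS and GWVehLPS lie below the PBS group of their arm. GWCBD30LPS, at 803.4 to 847.2 CPM, lies within the range of GWCBD30 through 1 library. That library, GWCBD30 replicate 3, lies below it at 766.9 CPM, and the other GWCBD30 libraries lie above it at 854.8 to 878.6 CPM.

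Markers of other cell types moved in the same comparisons. In the average, 7 of 8 microglial markers were called higher, and their summed level was 229.8 to 250.5 CPM in CtrlVeh, 373.0 to 405.6 CPM in CtrlVehLPS, 229.6 to 266.0 CPM in GWVeh, 364.4 to 452.9 CPM in GWVehLPS, 237.3 to 277.5 CPM in GWCBD30 and 284.6 to 330.8 CPM in GWCBD30LPS. Of 12 myelin and oligodendrocyte markers, 1 was called higher and 1 lower, with summed levels of 5691 to 6371 CPM in CtrlVeh, 5366 to 6490 CPM in CtrlVehLPS, 5512 to 7356 CPM in GWVeh, 5579 to 7908 CPM in GWVehLPS, 5102 to 5865 CPM in GWCBD30 and 6272 to 7195 CPM in GWCBD30LPS. The myelin sum was thus apart in the CBD arm alone, with LPS higher. Of 8 astrocyte markers 3 were called higher, as was 1 of 6 endothelial and 5 of 10 olfactory bulb markers. By edgeR 0 of 7 neuronal and 0 of 8 cerebellar markers were called, with 2 and 0 at an unadjusted p under 0.05, as had 17.8% of all genes. With the myelin score as a covariate, 12 members were called in the average, and 1074 of all genes in place of 705. The part of these cell types in the result was not tested.

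Exposure alone gave no call among the members. Exposed against unexposed vehicle mice, edgeR called 0 of 31 without LPS, where it called 0% of genes, and 0 under LPS, where it called 0.00499%. DESeq2 and limma voom also called 0 members. Over 9 alternatives, these among them, 0 to 176 of all genes were called without LPS and 0 to 118 under LPS. Members with an unadjusted p under 0.05 numbered 9 and 1, where 8.8% and 7.73% of all genes had one. Without LPS, Hsd17b7, Sc5d, a late desaturase, and Stard4 were lower in every exposed library, and Cyp46a1 was higher in every one, with log2 fold changes of -0.20 ± 0.08, -0.14 ± 0.07, -0.19 ± 0.07 and 0.26 ± 0.08. Groups that did not overlap were found in 4.59% of genes with lower and 4.8% with higher values. The interaction of exposure and LPS called 0 members by edgeR, DESeq2 and limma voom, with 4 at an unadjusted p under 0.05, as had 8.43% of genes. By edgeR 0% of genes were called there, and over 9 alternatives 0 to 82 genes were.

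CBD was set against vehicle in exposed mice. Without LPS, 0 of 31 members were called, 3 had an unadjusted p under 0.05, as had 6.43% of genes, and 0% of genes were called by edgeR. The synthesis enzymes had a median log2 fold change of -0.03. Under LPS, 17 of the 18 enzymes had a positive value, with a median of +0.12 against +0.00 over all genes. Still, edgeR called 0 of 31 members and 0.24% of genes, and 7 members had an unadjusted p under 0.05, as had 7.1% of genes. DESeq2 called 0 members and limma voom 2, and over 9 alternatives, these among them, 45 to 158 of all genes were called. Hmgcs1 had the smallest adjusted p of the members, at 0.28 ± 0.08 (adjusted p = 0.188, edgeR), and without GWVehLPS replicate 2 it was called, at 0.35 with an adjusted p of 0.0354. This comparison and the LPS effect of exposed vehicle mice share the GWVehLPS libraries, so their opposite signs are not independent.

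**Figure D4:**
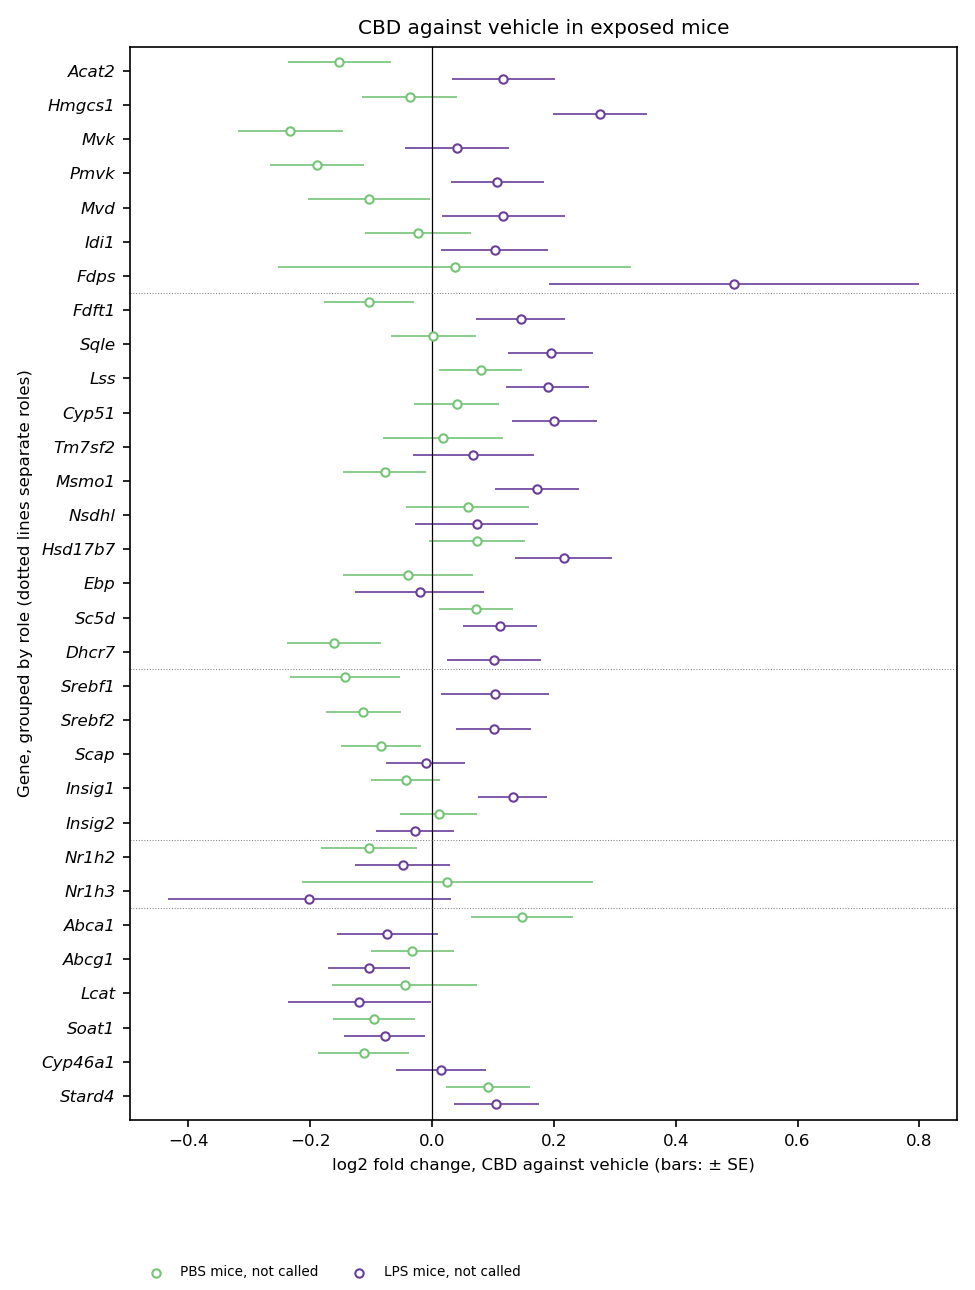
Each point is the log2 fold change of CBD against vehicle for 1 of the 31 genes in exposed mice, with bars of 1 SE, without LPS (green) and under LPS (purple). Under LPS 17 of 18 synthesis enzymes lie right of 0, and no point is filled, since none passed the adjusted p of 0.05.

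The difference itself between the LPS response with CBD and with vehicle was tested as an interaction. It called 0 members by edgeR, DESeq2 and limma voom, and 9 had an unadjusted p under 0.05, as had 5.69% of genes. By edgeR 0.0449% of genes were called, and over 9 alternatives 7 to 42 genes were. All 18 synthesis enzymes had a positive value, with a median of +0.21, while the median of all genes was +0.00 and 49.8% of genes were negative. Over 9 alternatives, the myelin score as a covariate among them, the median of the 18 ran from 0.12 to 0.21. In 22 fits that left out 1 library it ran from 0.16 to 0.26. The interaction draws on CBD against vehicle in both states. That value was -0.23 without LPS and 0.04 under LPS for Mvk, and -0.04 and 0.28 for Hmgcs1. For Hmgcs1 the difference was 0.31 ± 0.11 (95% interval 0.08 to 0.54, adjusted p = 0.732, edgeR). For Lss it was 0.11 ± 0.10, with an interval of -0.09 to 0.31, and for Insig1 0.18 ± 0.08, with an interval of 0.01 to 0.35. These intervals are not adjusted for the number of genes. Markers of other cells differed here too. In the interaction all 12 myelin and oligodendrocyte markers had a positive value, with a median of 0.26, 0 of them called by edgeR and 5 at an unadjusted p under 0.05. All 8 microglial markers had a negative value and 2 were called, and all 6 endothelial markers had a negative value, with 0 called and 3 at an unadjusted p under 0.05. For CBD against vehicle under LPS, 4 microglial and 3 endothelial markers were called lower, and 0 of 12 myelin markers were called, with 2 at an unadjusted p under 0.05. The part of these cell types was not tested.

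Genes of the pathway outside the 31 were read from 3 lists. Of 17 other SREBP target and sterol enzyme genes, 1 was called lower and 0 higher in the average, with a median of 0.01. Over all genes 1.03% were called lower and 2.49% higher. Pnpla3, a lipase of lipid droplets, fell by 0.34 ± 0.09 on the log2 scale (adjusted p = 0.0216, edgeR), with group means from 6.94 ± 1.44 CPM (SD, n = 3) in CtrlVehLPS to 9.97 ± 0.504 CPM (SD, n = 3) in CtrlVeh. With the olfactory bulb and cerebellar scores as covariates it was -0.19 with an adjusted p of 0.483, and without CtrlVehLPS replicate 1 it was -0.28 with an adjusted p of 0.0509.

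Of 13 regulators of SREBP outside the members, 0 were called in the average by edgeR, and 2 had an unadjusted p under 0.05, as had 17.8% of all genes. Prkaa2, a catalytic subunit of AMP kinase, had the smallest p, at -0.11 ± 0.04 (adjusted p = 0.192, edgeR). Of 25 other genes of sterol traffic and liver X receptor targets, 3 were called higher and 0 lower, with a median of 0.03, where 2.49% of all genes were called higher. Clu, an apolipoprotein made by astrocytes, rose by 0.21 ± 0.04 (adjusted p = 0.00132, edgeR). In unexposed mice it stood at 635 ± 23.7 CPM in the PBS group and 739 ± 47.9 CPM in the LPS group (SD, n = 3). Lipa, the lysosomal lipase of cholesteryl esters, rose by 0.20 ± 0.05 (adjusted p = 0.0160, edgeR), and with the olfactory bulb and cerebellar scores as covariates it was 0.20 with an adjusted p of 0.14. Soat2, which esterifies sterol in liver and gut, was called higher (adjusted p = 0.0189, edgeR) on 92 reads in all: 6 reads in CtrlVeh and 38 in CtrlVehLPS, 6 in GWVeh and 22 in GWVehLPS, and 5 in GWCBD30 and 15 in GWCBD30LPS. With those covariates its adjusted p was 0.28, and without CtrlVeh replicate 2 it was 0.0546.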

How the data were processed

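RNA (integrity number from 8.5 up) went into stranded poly(A) libraries and was read as 150-base pairs, per the labels' protocols. The authors deposited whole-number read counts per gene, not normalized, on GRCm38/mm10 per the submitters' processing notes. For the aligner, counter, strand setting and annotation, names are not given in the sources used. The model of the counts used edgeR 4.0.16 under R 4.3.3 (TMM scaling, filterByExpr, robust quasi-likelihood, 6 group means over 22 libraries, 16 residual degrees of freedom), with two-sided tests adjusted by Benjamini-Hochberg over 20026 genes and a threshold of 0.05. CPM used TMM-scaled library sizes. Totals of 17.2 to 31.2 M counts put the floor of 3 counts at 0.0963 to 0.175 CPM. SE was the fold change over the square root of F, and 95% intervals used 16 degrees of freedom. Gene positions and exon overlaps came from GENCODE M21, which held all 31 members. The fit was tested on simulated data. Alternatives included DESeq2 1.42.0 and limma 3.58.1 (voom). Values in each library are given for members called in at least 1 comparison and, for a role with none, the member with the smallest p for averaged LPS. Of the 3 pathway lists, genes called for averaged LPS are named, or the one with the smallest p. Results for 3 genes of 1 list are not reported here, and that list was shortened by them after its values were seen. Members and lists were chosen with earlier results of these data known.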

Additional observations from a re-analysis of the deposited data

Results flagged for a closer look

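In 64 groups of 4 libraries, 5 held a library far from the other 3, and chance gives about 1 in 20. Lss was 54.0 CPM in GWVeh replicate 4, against 47.5 to 48.4 CPM. Abcg1 was 89.5 CPM in GWCBD30 replicate 3, against 77.6 to 79.5 CPM. Nr1h2 was 47.4 CPM in GWCBD30 replicate 4, against 60.3 to 62.8 CPM. The level of Soat2 was 0.433 CPM in GWVehLPS replicate 2, against 0.138 to 0.175 CPM. The summed level of the 18 synthesis enzymes was 803.4 CPM in GWCBD30LPS replicate 1, against 840.2 to 847.2 CPM.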

How the results depend on the processing

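Counts of called members for averaged LPS were 9 with RLE scaling, 10 without a filter on low counts, 11 with at least 1 CPM in 3 libraries, 11 with DESeq2, 12 with limma voom, 12 with the myelin score and 4 with the olfactory bulb and cerebellar scores as covariates. Lss, Insig1, Hsd17b7 and Hmgcs1 were past the threshold for averaged LPS in every alternative run. In unexposed mice the count of 2 became 6 with limma voom, 0 with the olfactory bulb and cerebellar scores and 0 in a fit to the groups of the contrast alone. In exposed vehicle mice the count of 4 became 2 in a fit to the groups of the contrast alone. For CBD under LPS the count of 0 became 2 with limma voom and 1 without a filter. Calls among all genes moved as well over the alternatives other than leave-one-out fits. They ran from 333 to 1463 for averaged LPS (705 in the main fit) and from 23 to 694 in unexposed mice (99). In exposed vehicle mice they ran from 163 to 359 (188), and for CBD under LPS from 45 to 158 (48). A fit to its own groups was not run for averaged LPS, which uses all groups.

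Leaving out 1 library at a time gave 7 to 10 called members for averaged LPS, 0 to 2 in unexposed mice, 1 to 4 in exposed vehicle mice and 0 to 1 for CBD under LPS. Among all genes these fits called 449 to 899, 20 to 150, 125 to 266 and 22 to 67. Signs turned only where no call was made. The interaction of CBD and LPS of Stard4 was -0.029 with limma voom, -0.0026 with the olfactory bulb and cerebellar scores and -0.022 to 0.051 in leave-one-out fits, and that of Nr1h2 was -0.067 with the myelin score and -0.028 to 0.097 in leave-one-out fits. The LPS value in CBD mice ran from -0.12 to 0.0042 for Mvd and from -0.098 to 0.037 for Hmgcs1 in leave-one-out fits. The cause of these changes was not tested.

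Libraries with the same replicate number shared little of their deviations: over 51 such pairs the correlation ran from -0.09 to 0.13, and 1 exceeded 0.1. The median was 0.009, against -0.001 over 150 pairs with different numbers. Still, 10 of 22 libraries correlated best with their own number, more than an even share over the 4 numbers. These values do not settle whether the number marks a pairing. With a replicate block the counts were 8 for averaged LPS, 5 in exposed vehicle mice, 2 in unexposed mice and 0 in the other comparisons. Over the alternatives, this fit among them, all-gene calls ran from 333 to 1463, from 163 to 359 and from 23 to 694 in the first 3 of these. The counts are therefore not comparable with the main fit on their own. The share of members with the promoter motif, 3.85%, was 11.5% for its inner 8 letters and 3.85% for both motifs together. Depth limits Fdps, Nr1h3 and Soat2 most, and 3 or 4 libraries a group limit every comparison.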
